A study of Triticum aestivum with 3 samples.

Results

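The families miR1117 to miR1139 are small RNAs of wheat and related grasses, several of which have precursors that resemble repeated elements of the genome. They were chosen by name alone, as entries from miR1117 to miR1139 with 1 of 11 grass prefixes. The rule found 46 distinct sequences among the 1896 in the table of wheat (Triticum aestivum) leaf small RNAs. Of these, 45 carry wheat names (tae) and 1 a barley name (hvu), and 18 of the 23 family numbers have a member. A sequence named tae-MIR1137a-p5_1ss15GA is also listed as tae-miR1137b-5p_L+1R-1_1ss11GA and was counted 1 time. One further entry in this range, with the prefix far, was left out by the rule.

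Seedlings were treated for 2 days with dithiothreitol and tauroursodeoxycholic acid together (DTT+TUDCA), with DTT alone, or left as the control. DTT reduces disulfide bonds and so disturbs protein folding in the endoplasmic reticulum, and the bile acid TUDCA can act there as a chaperone. Each treatment is 1 sample. Its 2 RNA pools were mixed from 3 biological replicates. The labels do not say which replicates went into which pool, so the pools were treated as repeat runs, and no p-value between treatments was computed. The cultivar, the doses and what the control seedlings received are not stated in the labels. All 3 groups are leaves of seedlings, so fewer cells of a type and less RNA per cell cannot be told apart.

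Plant miRNAs are cut by DICER-LIKE1 from hairpins, usually as 21 nt duplexes. Miniature inverted-repeat transposable elements (MITEs) such as Stowaway are short DNA elements whose inverted ends can fold into a hairpin when an element is transcribed. Such hairpins may be cut to 21 nt products or, by DICER-LIKE3, to 24 nt siRNAs of the kind that guide DNA methylation.

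The members are low in abundance, often alike in sequence across family numbers, and none is a registered sequence. None of the 46 was registered in exactly the form read, against 283 of all 1896 sequences. By the name counted, 4 are altered forms of a registered mature miRNA and 42 are other sequences of a registered precursor. Among the 42 is tae-MIR1137a-p5_1ss15GA, which by its other name is also an altered form of a registered mature miRNA. A suffix such as p5 or p3 gives the arm of the hairpin, ss the number and place of substitutions, and L and R the changes at the ends. Substitutions are in the names of all but 9 members.

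The 46 members hold 41 different seeds (bases 2 to 8 from the 5′ end), and 2 seeds are shared. The first shared seed joins the families miR1127 and miR1128, and the sequences show how alike members with different numbers are. The seed is in capitals.
tae-MIR1127b-p5_1ss3TC: tCCGTCCGgaaatacttgtcc
tae-MIR1128-p5_1ss9AG: tCCGTCCGgaaatacttgtca
tae-MIR1128-p5: tCCGTCCGaaaatacttgtca
tae-MIR1128-p5_1ss21AC: tCCGTCCGaaaatacttgtcc
The second shared seed joins miR1120 and miR1122, with the seed again in capitals.
tae-MIR1120a-p5_1ss20AG: tCCGTCCCataatataagagc
tae-MIR1120a-p5_2ss12AC20AG: tCCGTCCCatactataagagc
tae-MIR1122c-p5_2ss4AG21GA: tCCGTCCCataatgtaagaca
In the first set, tae-MIR1127b-p5_1ss3TC and tae-MIR1128-p5_1ss9AG share a stretch of 20 bases. Of the 12 members with the highest means, tae-MIR1128-p5_1ss9AG is the one with a shared seed. The other 11 are shown because the values below rest on them, with seeds in capitals.
tae-MIR1137a-p3_1ss8CT: aTCTATTTtggaacggaggga
tae-miR1122b-3p_1ss11GT: aGACTTATatttaggaacgga
tae-MIR1137b-p3_2ss7TC17AG: tTGGGTCAtctattttggaac
tae-MIR1135-p3_1ss21TC: aAAATACGtctagatacatccatt
tae-MIR1122c-p3: aTATTATGggacggagggagt
tae-MIR1137a-p5_1ss15GA: cTCCGTTCcaaaatagatgac
tae-MIR1123-p3_1ss23AC: gATGCTTTgtgatttgtgaatgcc
tae-MIR1136-p5: tCCGAATTacttgtcgcaggt
tae-MIR1117-p5_1ss8GC: gTGGCACCaaccgggactaaaggt
tae-MIR1122a-p5: cAAGAATTttgggacggagggagt
tae-MIR1125-p5: aATTTAACcaacgagaccaactgc

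Likeness reached across family numbers. Of the 1035 pairs of members, 48 shared an exact stretch of at least 12 bases, read on the same strand or as the reverse complement. Of these pairs, 28 joined different families, 15 on the same strand and 13 as reverse complements. Linking such pairs joined 16 members of miR1120, miR1122, miR1127, miR1128, miR1130 and miR1133 into 1 group. A second group held 7 members of miR1127, miR1135, miR1136 and miR1137. In all, 32 members had such a partner and 14 had none, among them both members of miR1117, of miR1123, of miR1131 and of miR1138.

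Letters of the Stowaway ends were frequent among the members. The motif CTCCGT, searched on both strands (ACGGAG is its reverse complement), stood in 10 of the 46 members, or 21.7%. It stood in 28 of all 1896 sequences, or 1.48%, so that members were 10 of the 28. The motif CTCCCT on both strands (AGGGAG) stood in 5 members, or 10.9%, against 99 of all sequences, or 5.22%. All 5 also hold CTCCGT. A further motif, TCCGTCC on both strands, was chosen after the sequences were seen. It can overlap CTCCGT by the letters TCCGT, and it stood in 13 members, or 28.3%, against 26 of all sequences, or 1.37%. Any of the 3 motifs stood in 17 members, or 37.0%, against 127 of all sequences, or 6.70%. The 10 holders of CTCCGT are shown with every match to this motif or its reverse complement in capitals.
tae-MIR1122a-p5: caagaattttgggACGGAGggagt
tae-MIR1122c-p3: atattatgggACGGAGggagt
tae-miR1127a_L+2_1ss6TC: actccCTCCGTtcggaattac
tae-MIR1127a-p3_1ss11CG: caagtaattcggaACGGAGggagt
tae-miR1127b-3p_1ss12TC: acaagtatttccggACGGAGg
tae-MIR1130a-p3_1ss21TA: tcttacattatgggACGGAGa
tae-MIR1133-p3_2ss10TC21GC: tttttcggACGGAGggagtac
tae-MIR1137a-p5_1ss15GA: CTCCGTtccaaaatagatgac
tae-MIR1137a-p3_1ss8CT: atctattttggaACGGAGgga
hvu-miR1120_L-3: ttcttatattatgggACGGAG
The motif was read as CTCCGT in 2 holders, both from the 5′ arm of their precursor, and as its reverse complement in 8, of which 7 are from the 3′ arm. The exception is tae-MIR1122a-p5. Sequences of conserved families with the same prefixes (miR156 to miR408) held CTCCGT in 0 of 238 cases, but held CTCCCT in 26, or 10.9%, the same share as the members. Families with later numbers (miR5048 to miR5086 and miR9652 to miR9863, here the wheat-lineage list) held CTCCGT in 5 of 154 sequences and CTCCCT in 5. A match describes letters and is not evidence of a repeat element, which was not annotated here.

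Member lengths fell into 2 classes. Of the 46, 29 were 21 nt long, 16 were 24 nt and 1, tae-MIR1134-p5_1ss13TG, was 18 nt, with none at any other length. The 24 nt class made up 34.8% of the members, against 5.38% of all sequences, 7.79% of the wheat-lineage list and 0.420% of the conserved list. The classes also differed in their first base, which in Arabidopsis helps to sort small RNAs between ARGONAUTE proteins (AGO1 favours U and AGO4 favours A). Of the 21 nt members, 21 of 29 began with T (U in the RNA), against 418 of all 733 sequences of that length. Of the 24 nt members, 2 of 16 began with T and 7 with A, against 17 and 47 of all 102. No loading into an ARGONAUTE was measured.

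**Figure D1:**
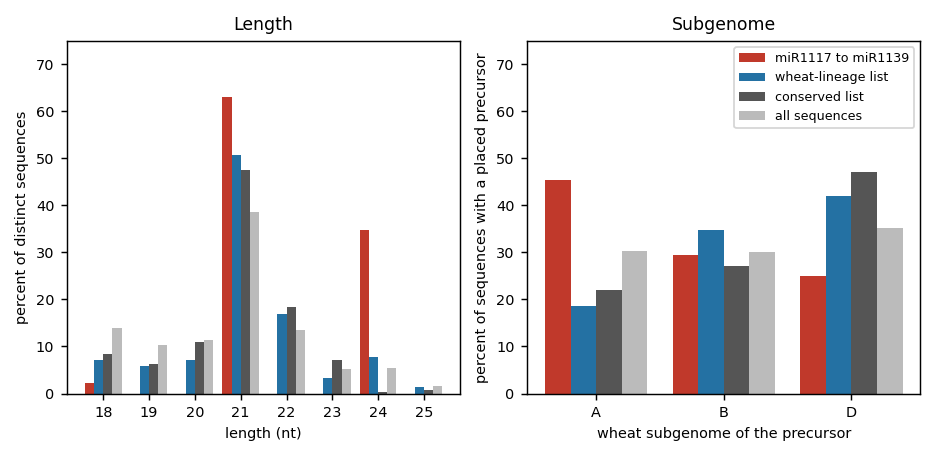
Left, the percent of distinct sequences at each length in nt, and right, the percent of sequences with a placed precursor on each wheat subgenome (A, B or D), for the 46 members, the wheat-lineage list, the conserved list and all 1896 sequences. Members stand only at 18, 21 and 24 nt, with 34.8% at 24 nt, and 45.5% of the placed members lie on subgenome A.

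Precursors of the members were spread over the genome. The 46 members come from 30 precursor positions as the table gives them, 17 on the plus and 13 on the minus strand. Of these, 29 lie on TGACv1 scaffolds named by chromosome arm, and the positions are those of the precursor, not of the mature sequence. By subgenome, 13 of the 29 lie on A, 9 on B and 7 on D, and all 7 chromosome groups have at least 2. Counted by member, 20 of 44 lie on A, or 45.5%, against 30.3% of all placed sequences, and 11 of 44 on D, or 25%, against 35.2%. No 24 nt member lies on D, where 11 of the 29 members of 21 nt lie. The 24 nt members have 9 on B and 5 on A, and the other 2, both of tae-MIR1122a, lie on an assembled sequence without a chromosome name. The most abundant precursor, tae-MIR1137a, lies on scaffold 556014 of 7AL, minus strand, from 33640 to 33787. The precursor of tae-miR1122b-3p_1ss11GT is at 70022 to 70189 on scaffold 433321 of 5DL, minus strand. That of tae-MIR1136-p5 is at 18369 to 18475 on scaffold 487524 of 6AS, plus strand. Members that share a seed can lie on different chromosomes. The precursor of tae-MIR1127b-p5_1ss3TC is at 9290 to 9416 on scaffold 114891 of 2AS, minus strand, and that of tae-MIR1128-p5_1ss9AG at 61937 to 62075 on scaffold 424067 of 5BS, plus strand. Gene annotation around these positions was not used here.

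Both arms were read from 17 precursors. In 10 of them the arms pair, here at least 15 aligned bases without gaps of which at least 80% form Watson-Crick pairs. The cut of a DICER-LIKE protein leaves 3′ overhangs of 2 bases at each end of a duplex. Only the pair of tae-MIR1127b had this form, with all 19 aligned bases paired and an overhang of 2 at both ends. The arms of tae-MIR1137a paired over 18 of 18 aligned bases with overhangs of 3, and those of tae-MIR1122b over 20 of 21 with no overhang. Summed over the 6 pools, the 3′ arm was the higher in 12 precursors and the 5′ arm in 5. The precursors of tae-MIR1137a and of tae-MIR1137b have the same 5′-arm sequence, whose values stand in both of their pairs, and both are among the 12 and among the 10 that pair. The widest gap was in tae-MIR1122b, where tae-miR1122b-3p_1ss11GT summed to 137 normalized reads and tae-MIR1122b-p5_1ss14GA to 3.19. In tae-MIR1117 the order was the other way, with 103 for the 5′ arm and 6.59 for the 3′ arm.

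Values are normalized reads as deposited. In DTT+TUDCA the 46 members together took 0.247% of the normalized reads of pool 1 and 0.00985% of pool 2. In DTT they took 0.00637% of pool 1 and 0.0674% of pool 2, and in the control 0.0108% and 0.0369%. As implied reads these were 1577 and 119 in the DTT+TUDCA pools, 39 and 508 in those of DTT, and 45 and 122 in the control pools. Exact Poisson 95% intervals of the share, which cover counting error only, ran from 0.235% to 0.260% and from 0.00814% to 0.0118% for the DTT+TUDCA pools. They ran from 0.00453% to 0.00871% and from 0.0618% to 0.0736% for the DTT pools, and from 0.00781% to 0.0143% and from 0.0306% to 0.0441% for the control pools. The intervals of the 2 pools of a treatment did not overlap in any treatment. Those of DTT+TUDCA pool 2, DTT pool 1 and control pool 1 overlapped each other. The whole pools held 638382 and 1211766 implied reads (DTT+TUDCA), 611784 and 752518 (DTT), and 420488 and 330652 (control), so the deepest pool was not the one with the most member reads.

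Most members were read in some pools only. DTT+TUDCA pools 1 and 2 listed 45 and 24 members above 0, the DTT pools 14 and 38, and the control pools 14 and 24. Of the 276 values, 117 are listed at 0. Over all sequences, values worth 1 read numbered 4 to 12 a pool, against 150 to 215 worth 2 reads, so a listed 0 may stand for 1 read. The filter is not known, so no upper limit is set on a listed 0. In all 6 pools stood 6 members, namely tae-MIR1120a-p5_1ss20AG, tae-MIR1122c-p3, tae-MIR1128-p5_1ss9AG, tae-MIR1136-p5, tae-MIR1137a-p5_1ss15GA and tae-MIR1137a-p3_1ss8CT. In 1 pool only, DTT+TUDCA pool 1, stood 5. DTT+TUDCA pool 1 held the highest value of 44 of the 46 members, against 937 of all 1896 sequences and 133 of the 154 in the wheat-lineage list. Values of 9 members include fractions of reads that other names share, among them both members of tae-MIR1137a, tae-MIR1136-p5, tae-MIR1122a-p5 and tae-miR1127b-3p_1ss12TC, so their levels are uncertain. The exceptions to the pool with the highest value are tae-MIR1122b-p5_1ss14GA, highest in DTT pool 2, and tae-MIR1117-p3_2ss12AT20CG, highest in control pool 2.

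**Figure D2:**
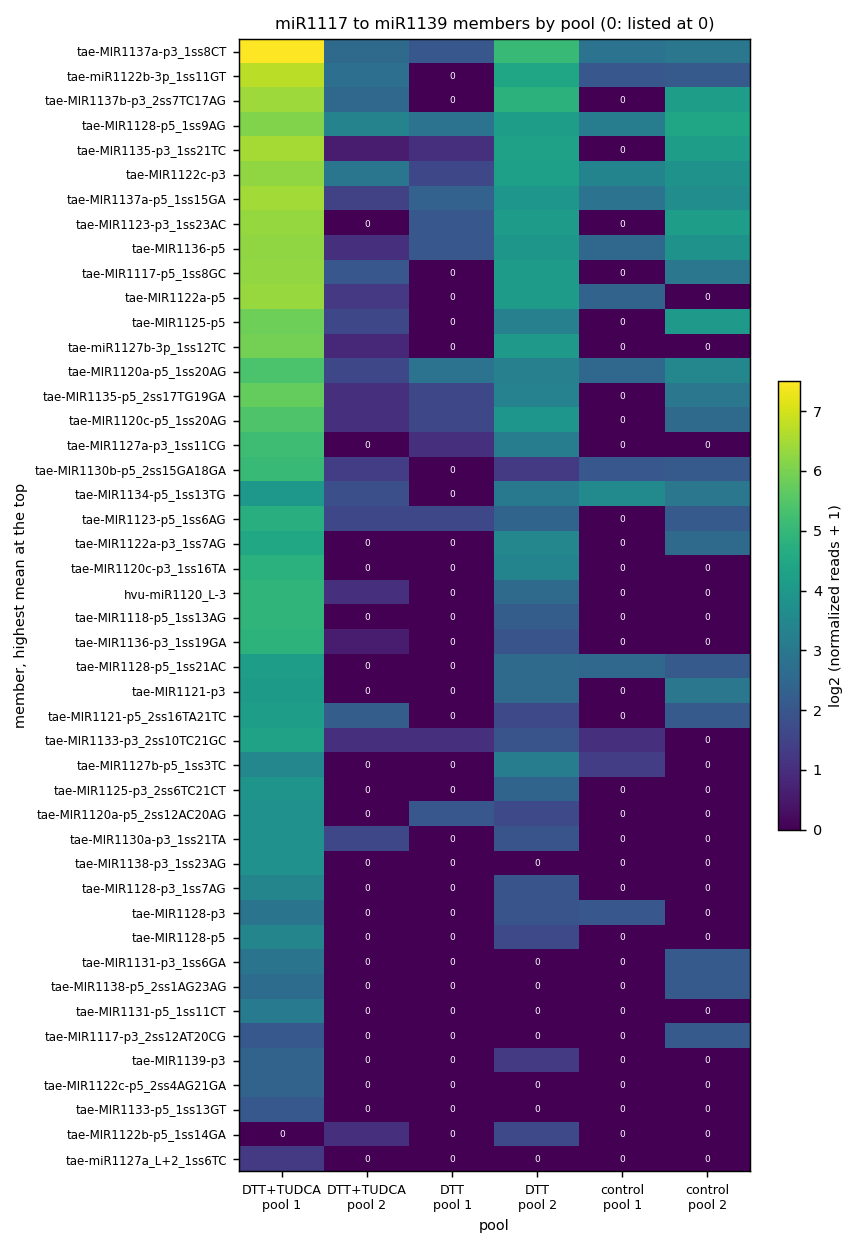
Level of each of the 46 members (rows, highest mean at the top) in each of the 6 pools (columns), as log2 of normalized reads plus 1, with listed zeros marked 0. DTT+TUDCA pool 1 is the brightest column and holds the highest value of 44 members, and DTT pool 1 and control pool 1 list 14 members each above 0.

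The same pools were high in the wheat-lineage list. It took 13.9% and 1.09% of the DTT+TUDCA pools, 1.70% and 6.45% of the DTT pools, and 1.57% and 5.11% of the control pools. The conserved list took between 52.5% and 63.7% of every pool. Set against the wheat-lineage list, the members had 17.7 and 9.0 normalized reads for each 1000 of that list in the DTT+TUDCA pools. The DTT pools had 3.75 and 10.4, and the control pools 6.87 and 7.22. On this scale too DTT+TUDCA pool 1 was the highest and DTT pool 1 the lowest. What part this shared pattern has in the differences between treatments was not tested, and with 1 sample per treatment, treatment and sample cannot be told apart.

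**Figure D3:**
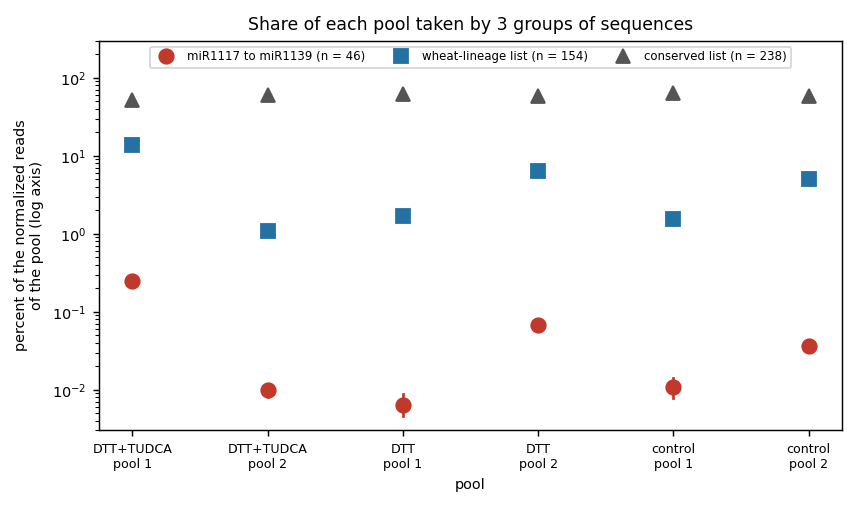
Percent of the normalized reads of each pool (log axis) taken by the 46 members, the wheat-lineage list and the conserved list; vertical lines are exact Poisson 95% intervals for the members and cover counting error only. Members and wheat-lineage list are both highest in DTT+TUDCA pool 1, at 0.247% and 13.9%, and the conserved list stays between 52.5% and 63.7%.

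By summed normalized reads, the 24 nt members differed more between the pools of a treatment than those of 21 nt. Their sum was 525 and 7.05 normalized reads in the DTT+TUDCA pools, 5.22 and 107 in those of DTT, and 7.32 and 71.3 in the control pools. The 21 nt members summed to 1141 and 51.9 in the DTT+TUDCA pools, 35.5 and 251 in those of DTT, and 52.8 and 129 in the control pools. The 24 nt class thus made up 31.2% and 11.5% of the member reads in the DTT+TUDCA pools, 12.8% and 29.3% in those of DTT, and 10.3% and 34.4% in the control pools. It was the larger in 1 pool of each treatment, the same pool in which the members as a whole were higher. Of the 16 members of 24 nt, 16 and 4 were above 0 in the DTT+TUDCA pools, 3 and 11 in those of DTT, and 2 and 8 in the control pools. In the lower pools the 24 nt sums rest on few reads. There all 46 members together held 119 implied reads (DTT+TUDCA pool 2), 39 (DTT pool 1) and 45 (control pool 1). No interval was computed for the 2 classes, so how much of the wider gap is counting error was not tested. The 86 other sequences of 24 nt in the table had the same pool higher within each treatment, at 3.38% and 0.367% of the DTT+TUDCA pools, 0.424% and 2.87% of the DTT pools, and 0.301% and 1.47% of the control pools.

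**Figure D4:**
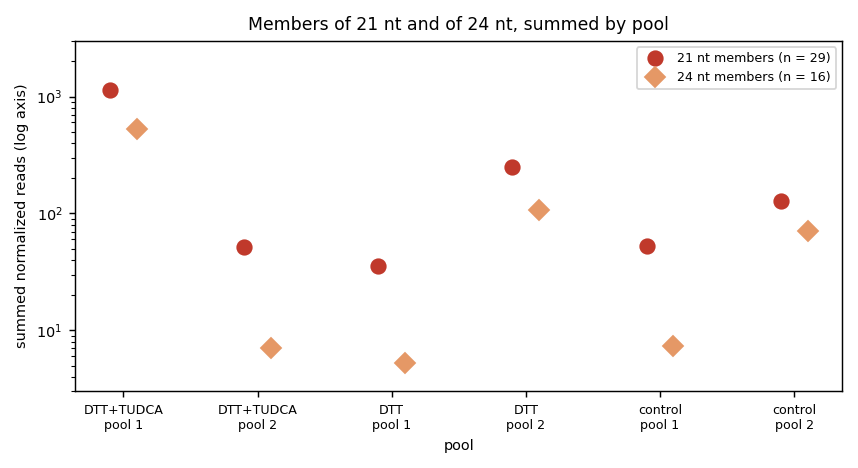
Summed normalized reads (log axis) of the 29 members of 21 nt and the 16 members of 24 nt in each of the 6 pools. In each treatment 1 pool holds both classes higher, and the gap between its pools is wider for 24 nt, with 525 against 7.05 in DTT+TUDCA pools 1 and 2. The 24 nt sums of the lower pools rest on few reads.

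By family, miR1137 and miR1122 were the most abundant, with 20.3% and 16.8% of the mean level of all members. miR1120 followed with 9.34%, and miR1135 and miR1128 with 8.08% and 7.99%. The lowest was miR1139, with 0.235%. These are levels of normalized reads over 1 to 6 members a family, and DTT+TUDCA pool 1 weighs most in the mean. miR1137 was also the highest family in DTT+TUDCA pool 1, DTT pool 2 and control pool 2, while miR1122 was the highest in DTT+TUDCA pool 2 and control pool 1, and miR1120 in DTT pool 1.

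For each comparison the pools of a treatment were summed, and a ratio was taken as log2 of the sums with a pseudocount of 1. A member counted as measured with at least 20 normalized reads over both treatments, and as higher or lower at 2-fold or more. Where a pool was left out, the remaining pool of that treatment was counted 2 times in the sum, for the ratio and for the floor. No interval goes with these counts.

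The comparison of DTT+TUDCA with DTT addresses what adding the chaperone did. tae-MIR1137a-p3_1ss8CT, the most abundant member, was at 180 and 4.98 normalized reads with DTT+TUDCA and at 3.13 and 32.8 with DTT. tae-miR1122b-3p_1ss11GT was at 104 and 5.67 with DTT+TUDCA and at 0 listed and 20.9 with DTT. tae-MIR1128-p5_1ss9AG was at 66.1 and 9.28 with DTT+TUDCA and at 6.27 and 17.3 with DTT. In all 3 the DTT+TUDCA pool 1 value was the highest and pool 2 lay between the DTT pools, so the treatments overlapped. Their log2 ratios were 2.33, 2.34 and 1.64. The highest ratio, 3.87, belonged to tae-MIR1130b-p5_2ss15GA18GA, at 33.0 and 1.55 with DTT+TUDCA and at 0 listed and 1.44 with DTT.

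In this comparison 29 of 29 measured members were at least 2-fold higher, against 40.2% of all 1099 measured sequences, and 0 were lower, against 3.46%. In the wheat-lineage list 84 of 94 measured sequences, or 89.4%, were higher and 0 lower. The floor bears on the members' count, since it is met by both treatments together. Of the 29, 5 reached 20 normalized reads in the DTT pools alone, against 698 of the 1099, and 8 could have been measured only if they were 2-fold higher. The other members passed with the help of the DTT+TUDCA pools, so the count and the median below are descriptions and support nothing. With pools scaled to the wheat-lineage list that count was 2 of 16, against 8.59% of all. Without DTT+TUDCA pool 1 it was 0 of 8, with 5 lower, and 52 higher and 212 lower of all 936. No member value in DTT+TUDCA pool 2 passed 9.28, so these 8 met the floor with the help of the DTT pools. The count and the median without DTT+TUDCA pool 1 thus support nothing either. The members' median log2 ratio was 2.03, against 0.72 for all sequences, 1.59 for the wheat-lineage list and 0.53 for the conserved list. It was 0.35 after scaling to the wheat-lineage list, against 0.04 for all, and -1.38 without DTT+TUDCA pool 1. Members of 21 nt and of 24 nt had medians of 2.00 and 2.16. Among the measured and at 2-fold or more, DTT+TUDCA pools lay wholly above the DTT pools for 2 of the 29, tae-MIR1121-p5_2ss16TA21TC and tae-MIR1130b-p5_2ss15GA18GA, against 7.55% of all, and wholly below for 0, against 1.82%. tae-MIR1121-p5_2ss16TA21TC was at 17.0 and 3.61 with DTT+TUDCA and at 0 listed and 2.16 with DTT, which are values worth at most 16 reads. The pool 2 value of tae-MIR1130b-p5_2ss15GA18GA and its higher DTT value were worth 3 and 2 reads. The other 17 members fell under the floor.

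After scaling to the wheat-lineage list the summed members stood at 320 and 161 in the DTT+TUDCA pools, 79.3 and 268 in those of DTT, and 126 and 146 in the control pools. The pools of the treatments then overlapped between DTT+TUDCA and DTT. Both DTT+TUDCA sums were above both control sums, but 161 and 146, both of pool 2, rest on 119 and 122 implied reads. Their Poisson 95% intervals were 98.6 to 142 and 101 to 146 reads. No interval was computed after scaling, so whether DTT+TUDCA and control lie apart cannot be told. Of the 16 members then over the floor, the 2 past 2-fold over DTT were tae-MIR1125-p5 and tae-miR1122b-3p_1ss11GT, with log2 ratios of 1.23 and 1.13. tae-miR1122b-3p_1ss11GT was then at 19.9 and 14.8 with DTT+TUDCA and at 0 listed and 15.3 with DTT, with overlapping pools. tae-MIR1130b-p5_2ss15GA18GA and tae-MIR1121-p5_2ss16TA21TC were then under the floor, with log2 ratios of 2.46 and 2.41 and with pools that still did not overlap.

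DTT+TUDCA against control sets the combined treatment beside the control leaves, with the same DTT+TUDCA pools as before. tae-miR1122b-3p_1ss11GT, at 104 and 5.67 with DTT+TUDCA, was at 3.14 and 3.39 in the control pools, so both treated pools lay above both control pools. tae-MIR1137a-p3_1ss8CT, at 180 and 4.98, was at 6.28 and 6.79 in the control, so its pool 2 lay under both control pools. tae-miR1127b-3p_1ss12TC was at 59.7 and 0.774 with DTT+TUDCA and listed at 0 in both control pools. tae-MIR1117-p5_1ss8GC was at 76.7 and 3.09 with DTT+TUDCA and at 0 listed and 6.79 in the control. The log2 ratios of tae-miR1122b-3p_1ss11GT, tae-MIR1137a-p3_1ss8CT and tae-MIR1117-p5_1ss8GC were 3.88, 3.73 and 3.38, and 2.00, 1.52 and 2.03 after scaling to the wheat-lineage list. Without DTT+TUDCA pool 1 that of tae-MIR1137a-p3_1ss8CT was -0.36.

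At least 2-fold higher were 27 of 29 measured members, against 41.4% of all 1107 measured sequences, 5 of 14 after scaling to the wheat-lineage list (21.2% of all), and 0 of 7 without DTT+TUDCA pool 1, where 3 were lower, and 139 higher and 221 lower of all 924. Of the 29, 2 reached 20 normalized reads in the control pools alone, against 683 of the 1107, and 12 could have been measured only if they were 2-fold higher, so this count and the median too support nothing. The count and the median without DTT+TUDCA pool 1 support nothing either. In the pool left no member value passed 9.28, so the floor was met with the help of the control pools. In the wheat-lineage list 74 of 93 measured sequences, or 79.6%, were higher as deposited, and 0 lower. As deposited 0 members were lower, against 6.05% of all. The 2 under the limit were tae-MIR1128-p5_1ss21AC, with a log2 ratio of 0.99, and tae-MIR1134-p5_1ss13TG, with -0.02. The members' median was 2.32, against 0.66 for all sequences and 1.64 for the wheat-lineage list. It was 0.46 after scaling to the wheat-lineage list (0.30 for all) and -0.81 without DTT+TUDCA pool 1. Of the 29, 6 are listed at 0 in both control pools, so their ratios measure no fold, and the median of the other 23 was 2.24. At 2-fold or more, pools lay wholly above the control for 5 of the 29 measured, against 13.6% of all, and wholly below for 0, against 5.24%. These 5 are tae-MIR1121-p5_2ss16TA21TC, tae-miR1122b-3p_1ss11GT, tae-miR1127b-3p_1ss12TC, tae-MIR1136-p3_1ss19GA and hvu-miR1120_L-3. The last 3 are listed at 0 in both control pools. Their DTT+TUDCA pool 2 values of 0.774, 0.516 and 1.03 are less than 1 read is worth in the control pools (1.57 and 1.70). Whether these pools lie apart thus cannot be told. tae-MIR1121-p5_2ss16TA21TC was at 3.61 in DTT+TUDCA pool 2 and at 0 listed and 3.39 in the control pools. The gap of 3.61 over 3.39 is less than 1 read of control pool 2, so this too cannot be told. Both control values of tae-miR1122b-3p_1ss11GT were worth 2 reads.

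The effect of DTT without the chaperone is addressed by its comparison with the control. tae-MIR1137a-p3_1ss8CT was at 3.13 and 32.8 normalized reads in the DTT pools and at 6.28 and 6.79 in the control pools. tae-MIR1122a-p5 was at 0 listed and 16.2 with DTT and at 4.19 and 0 listed in the control. tae-MIR1120c-p5_1ss20AG was at 2.09 and 14.4 with DTT and at 0 listed and 5.09 in the control. For each of the 3 the DTT pool 2 value stood above both control pools and that of pool 1 did not. Their log2 ratios were 1.39, 1.73 and 1.52. tae-MIR1136-p5, at 3.13 and 14.8 with DTT and at 4.71 and 13.6 in the control, had a ratio of -0.03. The lowest was tae-MIR1134-p5_1ss13TG, at 0 listed and 7.2 with DTT and at 11 and 6.79 in the control, with -1.20.

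Of 15 measured members 5 were at least 2-fold higher and 1 lower, against 16.8% and 10.2% of all 958 measured sequences. The other 2 higher members were tae-MIR1117-p5_1ss8GC and tae-miR1122b-3p_1ss11GT. Pools that did not overlap were found for 0 of the 15 measured, against 13.3% of all sequences for higher and 8.14% for lower ones. The members' median log2 ratio was 0.20, against 0.08 for all. After scaling to the wheat-lineage list 0 of 11 were higher and 1 lower, against 198 and 102 of all 1053. Without DTT pool 2, 0 of 6 were higher and 5 lower, against 176 and 166 of all 942. Without DTT pool 1, 10 of 18 were higher, against 241 of all 976. Without control pools 1 and 2, 2 of 16 and 3 of 10 were higher, against 173 of 985 and 207 of 944. Of the 15 measured, 2 reached 20 normalized reads in the control pools alone, against 683 of all 958. In the DTT pools alone 5 did, against 698. Of the 2 that did in the control, 0 were higher, and 2 of the 15 could have been measured only if 2-fold higher. The counts and the median of this comparison thus support nothing. The other 31 members fell under the floor, with at most 17.9 normalized reads over the 4 pools.

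**Figure D5:**
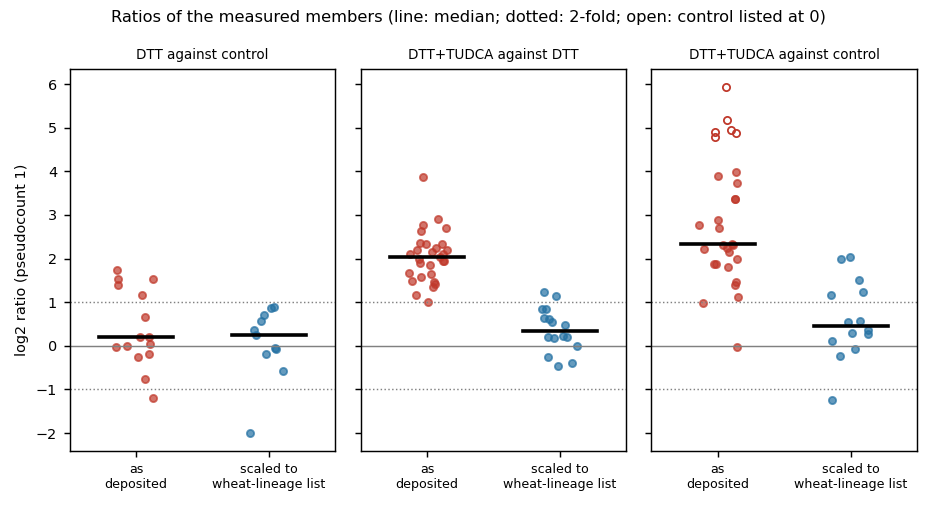
Log2 ratios (pseudocount 1) of the measured members in the 3 comparisons, as deposited and with pools scaled to the wheat-lineage list; black lines are medians, dotted lines the 2-fold limit, and open points members listed at 0 in both control pools. For DTT+TUDCA against DTT the median is 2.03 as deposited and 0.35 after scaling, and for DTT against control it is 0.20 and 0.24.

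Single pools show how far the direction depends on which pools are set side by side. The members summed in DTT+TUDCA pool 1 were 41.2 and 4.60 times those of DTT pools 1 and 2, and those in DTT+TUDCA pool 2 were 1.51 and 0.168 times. Against control pools 1 and 2, DTT+TUDCA pool 1 stood at 23.6 and 8.12 times, and pool 2 at 0.865 and 0.297 times. DTT pool 1 stood at 0.573 and 0.197 times control pools 1 and 2, and DTT pool 2 at 5.13 and 1.76 times. Within a treatment, pool 1 was 27.3 times pool 2 in DTT+TUDCA, 0.112 times in DTT and 0.344 times in the control. The gap within DTT+TUDCA was larger than any gap between treatments except that of DTT+TUDCA pool 1 over DTT pool 1.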

How the data were processed

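Small RNA was read from wheat leaves in 3 samples, each as 2 pools (TruSeq small RNA kit with 50-base single-end reads, per the labels' protocols). The values are signal, namely normalized reads deposited by the authors in 6 columns, per the file headers. No source used here names the aligner, counter, filters or normalization rule, and the depths are those implied by the values.

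The 1969 rows were reduced to 1896 distinct sequences. Most values of a pool were whole multiples of 1 step, with a tolerance of 0.01 reads, and that step gave the implied reads. Sequences shared between names carry fractions (9 of the 46 members), so no count test was run. A value was used as deposited, pools were summed, and ratios were computed with Python 3.11.15, pandas 2.3.3 and numpy 2.4.6. Pool-scaling factors were medians of ratios over the 70 wheat-lineage sequences above 0 in all 6 pools, in one of the alternatives. The calls were tested on simulated data with known folds, which checks the computation only and gives no error rate for these data. Members named in the text are 21 by rule (the 12 highest means, up to 5 highest and 5 lowest ratios a comparison, and called members whose pools do not overlap). Others are named to describe sequences or exceptions. Members, lists and steps were chosen with earlier results of these data known. The comparisons share samples, so nothing is correlated between them.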

Additional observations from a re-analysis of the deposited data

How the results depend on the processing

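No paired analysis was possible because each treatment is 1 sample and no label ties pool numbers across treatments, so no fit with a block could be made. With pools scaled to the wheat-lineage list, the members at least 2-fold higher numbered 2 for DTT+TUDCA against DTT, 5 for DTT+TUDCA against control (with 1 lower) and 0 for DTT against control. That scaling moved the median log2 ratio of all sequences for DTT+TUDCA against DTT to 0.04 (0.72 as deposited) and for DTT+TUDCA against control to 0.30 (0.66 as deposited). Under it the log2 ratio turned to -0.40 for tae-MIR1120c-p5_1ss20AG and -0.27 for tae-MIR1123-p3_1ss23AC (DTT+TUDCA against DTT) and to -0.074 for tae-MIR1136-p5 (DTT+TUDCA against control), and tae-MIR1120a-p5_1ss20AG turned to -0.47 and -0.23 in these 2 comparisons (1.45 in both as deposited). A floor of 100 normalized reads left fewer members measured. Over DTT, 6 of 6 measured members were then higher with DTT+TUDCA, against 199 of all 510 sequences. Over control 7 members were higher, against 217 of all 507. No member was measured for DTT against control. Without a floor, 20 were higher and 5 lower for DTT against control (536 and 253 of all 1773), and a pseudocount of 5 gave 0 lower (71 of all 958). Equal totals and scaling over all or the conserved sequences kept these counts within 1.5 times. The causes were not tested.

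Leaving out 1 pool at a time gave, for DTT+TUDCA against DTT, 0 to 36 members higher, 0 to 5 lower, a median log2 ratio of -1.38 to 4.58 and a log2 ratio of sums of -1.71 to 4.40. For DTT+TUDCA against control these were 0 to 33 higher, 0 to 3 lower, a median of -0.81 to 4.63 and a ratio of sums of -1.17 to 3.6. For DTT against control they were 0 to 10 higher, 0 to 5 lower, a median of -1.21 to 1.19 and a log2 ratio of sums of -1.76 to 1.51. Both ratios were negative in the DTT+TUDCA comparisons without DTT+TUDCA pool 1. The 36 higher over DTT were all 36 measured without DTT+TUDCA pool 2, against 711 of all 1207 sequences. The 33 higher over control were without the same pool, against 651 of all 1213. The median of 4.58 was without DTT pool 2. The DTT pool left, pool 1, lists 14 of the 46 members above 0, and ratios of members listed at 0 there measure no fold.

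For DTT+TUDCA against DTT the log2 ratio ran from -1.29 to 6.34 for tae-MIR1117-p5_1ss8GC, -0.55 to 4.01 for tae-MIR1122c-p3, -0.83 to 6.80 for tae-miR1122b-3p_1ss11GT, -0.33 to 2.50 for tae-MIR1128-p5_1ss9AG, -3.35 to 4.86 for tae-MIR1135-p3_1ss21TC, -2.09 to 3.25 for tae-MIR1137a-p5_1ss15GA, -1.75 to 4.68 for tae-MIR1137a-p3_1ss8CT and -1.46 to 6.49 for tae-MIR1137b-p3_2ss7TC17AG. For DTT+TUDCA against control it ran from -0.74 to 2.67 for tae-MIR1122c-p3, -0.58 to 2.19 for tae-MIR1128-p5_1ss9AG, -2.65 to 2.97 for tae-MIR1136-p5, -2.06 to 3.18 for tae-MIR1137a-p5_1ss15GA, -0.36 to 4.68 for tae-MIR1137a-p3_1ss8CT and -0.81 to 6.49 for tae-MIR1137b-p3_2ss7TC17AG. For DTT against control it ran from -1.31 to 0.92 for tae-MIR1123-p3_1ss23AC and -1.03 to 0.64 for tae-MIR1137a-p5_1ss15GA. It ran from -2.21 to 0.62 for tae-MIR1122c-p3, -1.41 to 0.86 for tae-MIR1136-p5 and -1.11 to 0.56 for tae-MIR1128-p5_1ss9AG. The lowest of each was without DTT+TUDCA pool 1, and for DTT against control without DTT pool 2. Others also changed sign for DTT against control, such as tae-MIR1125-p5, at -1.71 without control pool 1 and 0.17 without DTT pool 1. The values of 6.34, 6.80 and 6.49 over DTT were without DTT pool 2. These 3 members are listed at 0 in DTT pool 1, so the ratios rest on the pseudocount and measure no fold. The same holds for the 6.49 of tae-MIR1137b-p3_2ss7TC17AG over control, which is listed at 0 in control pool 1.

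Depth limits most members: 31 fell under the floor for DTT against control, and the highest member had 169 implied reads in its highest pool.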

Other observations

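Members of 1 precursor were not always of 1 length. tae-MIR1135, tae-MIR1123 and tae-miR1127a gave a 21 nt sequence from the 5′ arm and a 24 nt sequence from the 3′ arm. The 24 nt arm had the higher sum over the 6 pools in all 3, at 126 against 70.4 normalized reads for tae-MIR1135, 116 against 37.4 for tae-MIR1123, and 44.1 against 1.42 for tae-miR1127a. DTT+TUDCA pool 1 weighs most in these sums. The 21 nt arm was the higher for tae-MIR1135 in DTT+TUDCA pool 2 and DTT pool 1, and for tae-MIR1123 in DTT+TUDCA pool 2. Of the 3, only the arms of tae-miR1127a pair by the rule given above.

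Precursor intervals had a median of 132 bases and a longest of 295 (tae-MIR1122a). The shortest were 26 bases for tae-MIR1128-p3_1ss7AG, on scaffold 130192 of 2BL from 49364 to 49389, and 36 bases for tae-MIR1130b-p5_2ss15GA18GA, on scaffold 343303 of 4DL from 70675 to 70710. These intervals are little longer than the mature sequences of 21 nt. tae-MIR1130b-p5_2ss15GA18GA is the member with the highest ratio of DTT+TUDCA to DTT.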
